A study of Homo sapiens with 54 samples.

Results

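The genes described here were 50 genes of mitosis, the part of the cell cycle in which a cell divides, read in human lung cancer cells given an empty vector or USP18 and treated with 3 compounds. They were taken as a set for their textbook roles in cell division, and they were found by symbol in a table of 58870 genes. Some count was present for 33324 of these. Each of the 50 symbols matched 1 row, and all 50 passed the filter on low counts in every comparison. For the account they were sorted by known role into 7 groups: entry into mitosis (8 genes), the spindle checkpoint and anaphase (9), the Aurora kinases and their partners (6), centromere and kinetochore (7), kinesin motors (8), spindle and cytokinesis (8), and proliferation markers with others (4).

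The study sequenced RNA of A549, an established line derived from a human lung adenocarcinoma, as engineered to carry an insertless vector (EV cells) or a vector expressing USP18 (USP18 cells). USP18 is a protease that takes the ubiquitin-like protein ISG15 off its targets. Both kinds of cells received vehicle (DMSO), CP2 at 2 or 5 µM, CP14 at 1, 2.5 or 5 µM, or CP18 at 1, 2.5 or 5 µM for 48 h, which gave 18 groups of 3 libraries and 54 libraries in all. The compounds are known here only by these codes, and the sources do not say which code, if any, stands for β-lapachone, the agent that the series names. Total expected counts per library ran from 16673228 to 25609062, with a median of 19701304. The sources do not say that more than 1 engineered population carried each vector, so the vector and any other difference between the populations cannot be told apart. The labels do not say that replicates were separate cultures. The study's statistics section describes experiments in general as typically done in triplicate, with 3 or more independent biological replicates, and does not name these libraries. The p-values therefore measure the spread between these samples, which may be technical.

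In a dividing cell, cyclin B with its kinase CDK1 starts mitosis, the spindle attaches to chromosomes at kinetochores, and a checkpoint holds back chromosome separation until the attachments are made. The anaphase-promoting complex then destroys cyclin B and securin, kinesins and cytokinesis proteins part the daughter cells, and the RNAs of most of these proteins are scarce outside the later cell cycle. Transcription of many such genes is driven by MYBL2 and FOXM1 and held down in resting cells by a complex with RBL1 or RBL2, both acting through promoter elements near a CCAAT box.

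The vector labels were borne out by USP18 itself. In CPM, the usual counts scaled to library size, USP18 in EV cells given vehicle was 10.6, 10.7 and 11.1, and in USP18 cells given vehicle 1301, 1291 and 1327. Over all groups the EV libraries lay between 8.77 and 12.3 CPM and the USP18 libraries between 947 and 2114 CPM. No EV library overlapped a USP18 library. The highest USP18 group was CP14 at 5 µM, at 1963, 2114 and 2061 CPM, and the lowest was CP18 at 1 µM, at 1004, 992 and 947 CPM, so the level of the expressed gene was not the same under all treatments.

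The A549 label was set against marker genes. All 8 epithelial markers were expressed well enough to be tested in the comparison of CP14 at 5 µM with vehicle, their summed level was 6360 to 13356 CPM over the 54 libraries, and KRT8, a keratin, was the most abundant at 4366 CPM. Of 8 markers of alveolar type 2 cells, the cell type A549 is often used to stand for, 2 were expressed well enough to be tested, LAMP3 and NAPSA. The surfactant genes SFTPA1 and SFTPB had no count in any library, and SFTPA2 had at most 3 counts in each. No other gene of the 8 stayed that low throughout, and the untested others are not given. The list summed to 1.37 to 41.9 CPM over the libraries, with LAMP3 the most abundant at 4.27 CPM. The markers therefore showed epithelial cells, while these 3 surfactant genes were absent or near 0 and did not show a lung origin. Whether the list as a whole marks alveolar cells was not tested. Markers of endothelial cells summed to 0.608 CPM or less, with none tested, PECAM1 the most abundant at 0.132 CPM and KDR at no more than 3 counts in each library. Fibroblast markers summed to 4.25 to 17.9 CPM, with 4 of 6 tested, COL1A1 the most abundant at 7.92 CPM and DCN at no more than 3 counts. Leukocyte markers summed to 33.3 to 99.9 CPM, of which CD68, a lysosomal protein gene that many cells express, held 42.0 CPM, while CD3E had no count in any library.

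Because the members moved together in the results that follow, the letters near their starts were read. The RefSeq promoter windows (GRCh38.p14, 250 bases before to 50 after a start) held 55 windows for 44 of the 50 members, 7 of them with more than 1 window. AURKA, BIRC5, FOXM1, TPX2, TTK and UBE2C had no entry. The search took TTTGAA and TTCGAA, the letters of the cell cycle genes homology region, and CCAAT, each on both strands, where TTTGAA reads TTCAAA and CCAAT reads ATTGG on the other strand. The letters TTTGAA were present in 35 of the 55 windows (63.6%) against 15.2% of all 35116 windows, and TTCGAA in 4 (7.27%) against 1.45%. CCAAT was present in 42 (76.4%) against 34.6% of all windows. Both kinds of letters stood in 31 windows (56.4%) against 6.38% of all windows. A match is a description of the sequence and not a site known to be bound.

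Among the members with both kinds of letters were CDK1, CDC20, PLK1 and MKI67, which are shown since they span entry into mitosis, anaphase and the growth marker. The 250 bases up to the annotated start are given on the strand of the gene, 5′ to 3′, with the searched letters in capitals. They lie at chr10:60778228-60778477 (plus strand) for the downstream one of 2 overlapping CDK1 windows, chr16:23678639-23678888 (plus) for PLK1, chr10:128126424-128126673 (minus) for MKI67 and chr1:43358731-43358980 (plus) for CDC20.
CDK1: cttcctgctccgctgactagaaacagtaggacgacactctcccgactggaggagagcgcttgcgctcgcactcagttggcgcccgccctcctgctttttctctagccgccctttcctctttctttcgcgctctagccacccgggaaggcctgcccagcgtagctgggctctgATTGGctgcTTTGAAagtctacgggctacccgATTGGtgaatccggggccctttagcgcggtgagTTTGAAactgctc
PLK1: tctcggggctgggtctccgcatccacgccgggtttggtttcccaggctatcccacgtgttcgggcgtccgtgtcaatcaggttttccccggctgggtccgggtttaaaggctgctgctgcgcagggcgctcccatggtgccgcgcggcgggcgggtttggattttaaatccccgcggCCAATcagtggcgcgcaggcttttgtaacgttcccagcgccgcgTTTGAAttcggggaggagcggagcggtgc
MKI67: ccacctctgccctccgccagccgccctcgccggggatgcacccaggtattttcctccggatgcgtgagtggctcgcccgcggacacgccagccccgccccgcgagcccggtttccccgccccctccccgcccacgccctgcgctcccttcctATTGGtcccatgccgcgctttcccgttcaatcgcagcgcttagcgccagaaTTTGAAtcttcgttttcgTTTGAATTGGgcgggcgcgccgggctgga
CDC20: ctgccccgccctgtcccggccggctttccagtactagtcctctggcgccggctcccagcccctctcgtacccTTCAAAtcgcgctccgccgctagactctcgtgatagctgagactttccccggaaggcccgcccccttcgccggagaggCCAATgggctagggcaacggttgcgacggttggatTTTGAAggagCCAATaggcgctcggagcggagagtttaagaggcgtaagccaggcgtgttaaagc
In this CDK1 window TTTGAA began 69 and 13 bases before the start and ATTGG 78 and 46 bases before it, and TTCAAA lay after the start, outside the bases printed. In PLK1, CCAAT began 73 bases and TTTGAA 29 bases before the start. In MKI67, TTTGAA began 47 and 29 bases before the start and ATTGG 98 and 24 bases before it, and the last of these shares a base with TTTGAA in the run TTTGAATTGG. In CDC20, TTCAAA began 178 bases, TTTGAA 65 bases and CCAAT 100 and 55 bases before the start. The 29 members with both kinds of letters in a window and the 15 matched members without had median log2 fold changes of −1.73 and −1.72 under CP14 at 5 µM in EV cells, and of −1.70 and −1.63 in USP18 cells.

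In EV cells given vehicle the 50 members together took 0.639 to 0.658% of all counts, and in USP18 cells given vehicle 0.701 to 0.702%. Between genes, levels were compared per kb of exon. TOP2A, the topoisomerase that untangles chromosomes, stood highest in EV cells with vehicle at 140 ± 2.69 CPM per kb (SD, n = 3), followed by the phosphatase CDC25B at 98.0 ± 1.07, cyclin B1 (CCNB1) at 89.2 ± 4.38 and the spindle assembly factor TPX2 at 71.7 ± 1.41 CPM per kb. The lowest levels per kb were those of the motor KIF15 (5.36 ± 0.42), the kinetochore subunit NDC80 (5.15 ± 0.46) and the phosphatase CDC25C (5.08 ± 0.27), which did not differ from each other beyond their spread. PLK1 at 31.4 ± 1.99 and AURKB at 28.2 ± 1.15 CPM per kb lay in the middle of the order. CCNB2, PRC1 and KIF11, at 35.4 ± 0.78, 35.2 ± 1.29 and 35.9 ± 0.42 CPM per kb, were also not separated beyond their spread.

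CP14 at 5 µM lowered the whole set in EV cells. The members' share of counts was 0.198 to 0.214% in these 3 libraries, so no library of this group reached the lowest vehicle library. All 50 members were lower than with vehicle by edgeR's test at an adjusted p under 0.05, where 32.2% of the genes tested were lower, and 48 of the 50 were also past a log2 fold change of −1, where 7.51% of the genes tested were. The members' median log2 fold change was −1.72 and that of all genes tested 0.00. The scaling between libraries holds the latter near 0.00, here and in the other comparisons, so a shift in all RNA would not be seen. The largest was that of KIF20A (−2.68) and the smallest that of CDC25B (−0.60), which with ECT2 (−0.95) made up the members short of −1. In these bulk samples fewer dividing cells and less RNA of each gene per cell cannot be told apart. The count was 50 without any 1 of the 12 libraries in the fit. Mitochondrial RNA, 1 sign of RNA quality, was 2.74 to 2.99% of counts with CP14 at 5 µM and 3.20 to 3.37% with vehicle in EV cells, and short RNAs that lack a poly(A) tail were 0.00502 to 0.00927% and 0.00666 to 0.0498%. What these RNAs show depends on the library method, on which labels and methods differ. Their part in the result was not tested.

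**Figure D1:**
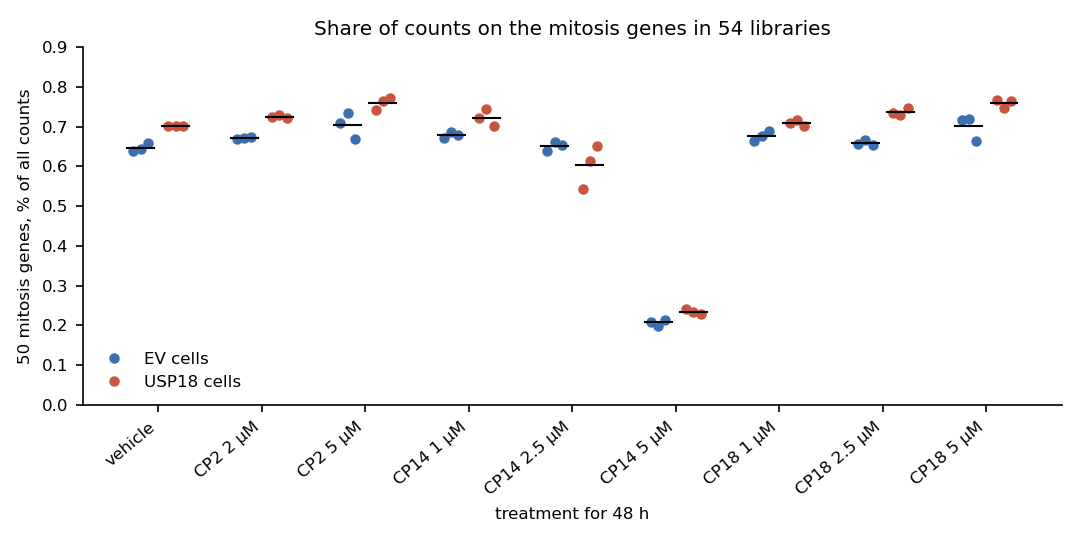
Share of all counts taken by the 50 mitosis genes, in percent, with 1 point per library and the group mean as a bar, for the 18 groups. The CP14 5 µM libraries sit between 0.198 and 0.241%, below every other library, and the CP14 2.5 µM USP18 libraries between 0.543 and 0.650%.

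Of the 8 genes of entry into mitosis all 8 fell in EV cells with CP14 at 5 µM, with a median log2 fold change of −1.77. CCNB1, the cyclin that turns CDK1 on, read 219, 206 and 227 CPM with vehicle and 64.8, 63.3 and 67.0 CPM with the compound. CDK1, the kinase of mitotic entry, read 143, 143 and 155 CPM and then 37.1, 33.7 and 42.0 CPM. PLK1, a kinase of centrosome maturation and mitotic exit, read 149, 140 and 159 CPM and then 32.8, 36.0 and 36.3 CPM. For each of the 3 genes every treated library lay below every vehicle library. By edgeR, CCNB1 was 3.35-fold lower (log2 −1.75 ± 0.04, SE; adjusted p = 1.9e-26), CDK1 3.93-fold lower (log2 −1.98 ± 0.06; adjusted p = 4.3e-16) and PLK1 4.29-fold lower (log2 −2.10 ± 0.05; adjusted p = 4.3e-24). Cyclin A2 (CCNA2), which acts from S phase to early mitosis, changed most in the group (log2 −2.12 ± 0.06). Cyclin B2 (CCNB2) at −1.55, the transcription factor FOXM1 at −1.80 and CDC25C, which activates CDK1, at −1.61 fell as well. CDC25B, the phosphatase that starts CDK1 activation at the centrosome, fell least of all 50 members, by 1.51-fold.

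The 9 genes of the spindle checkpoint and anaphase fell with a median log2 change of −1.59, and all 9 were past −1. CDC20, the activator of the anaphase-promoting complex, read 105, 111 and 122 CPM with vehicle and 50.7, 53.0 and 52.5 CPM with CP14 at 5 µM. UBE2C, the ubiquitin-conjugating enzyme of that complex, read 80.5, 74.3 and 86.4 CPM and then 28.2, 28.4 and 30.7 CPM. The treated and vehicle libraries of both genes were apart. CDC20 was 2.17-fold lower (log2 −1.12 ± 0.05; adjusted p = 1.3e-18 by edgeR), the smallest change of the group, and UBE2C was 2.78-fold lower (log2 −1.48 ± 0.06). BUB1B, which keeps CDC20 inactive, changed most (log2 −1.73 ± 0.05). The checkpoint genes MAD2L1 (−1.71), TTK (−1.70) and BUB1 (−1.63), the securin gene PTTG1 (−1.58) and the shugoshins SGO2 (−1.59) and SGO1 (−1.36), which guard centromeric cohesion, lay between these values on the log2 scale.

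All 6 genes of the Aurora kinases and their partners fell, with a median log2 change of −1.86. AURKB, the kinase that corrects wrong attachments, read 60.8, 62.6 and 65.9 CPM with vehicle and 15.0, 16.9 and 14.5 CPM with CP14 at 5 µM, with no overlap. It was 4.09-fold lower (log2 −2.03 ± 0.06; adjusted p = 3.7e-24 by edgeR). AURKA, the kinase of the spindle poles, changed by about as much (log2 −2.04 ± 0.05), and TPX2, which activates AURKA, least (−1.50 ± 0.04). AURKB's partners survivin (BIRC5, −1.95) and borealin (CDCA8, −1.77) and the centrosome kinase NEK2 (−1.72) were lower as well. The 7 genes of centromere and kinetochore had a median of −1.70. SPC25, a subunit of the NDC80 complex that holds microtubules, read 20.4, 18.7 and 20.5 CPM and then 3.38, 3.15 and 4.25 CPM, clear of the vehicle libraries (5.57-fold lower). The other subunits read here were lower by −1.62 (NDC80) and −1.70 (NUF2) on the log2 scale. The kinetochore proteins CENPF (−2.02) and CENPE (−1.42), the centromeric histone CENPA (−1.71) and SKA1, which steadies the attachments, (−1.01) completed the group.

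The 8 kinesins fell with a median log2 change of −1.69. KIF20A, a motor of the late spindle and cytokinesis, read 83.5, 84.6 and 88.4 CPM with vehicle and 14.1, 12.0 and 14.1 CPM with CP14 at 5 µM. It had the lowest log2 value of the 50 members, and its libraries did not overlap (6.41-fold lower, log2 −2.68 ± 0.06; adjusted p = 1.2e-26 by edgeR). KIF11, which pushes the spindle poles apart, was lower by −2.29 and KIF15, which can stand in for it, by −1.41 on the log2 scale. KIF14 (−1.85) and KIF23 (−1.57), both of cytokinesis, KIF2C (−1.81), which takes microtubules down, KIF4A (−1.56), which acts on chromosomes and the midzone, and KIF20B (−1.56) lay between. The 8 genes of spindle and cytokinesis had a median of −1.95, led by ASPM (−2.33 ± 0.05), which works at the spindle poles. The ring protein ANLN (−2.25), the spindle proteins NUSAP1 (−2.20), DLGAP5 (−2.17), HMMR (−1.72) and CKAP2L (−1.52) and the microtubule bundler PRC1 (−1.73) fell by more than ECT2 (−0.95), the exchange factor that switches on RhoA for the cleavage furrow.

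MKI67, which encodes the proliferation marker Ki-67, read 484, 475 and 468 CPM with vehicle and 91.2, 80.3 and 95.6 CPM with CP14 at 5 µM in EV cells. TOP2A read 876, 908 and 902 CPM and then 273, 258 and 273 CPM. Neither gene had a treated library near a vehicle library. MKI67 was 5.37-fold lower (log2 −2.42 ± 0.07; adjusted p = 5.8e-12 by edgeR) and TOP2A 3.35-fold lower (log2 −1.75 ± 0.05; adjusted p = 3.1e-19). GTSE1, a microtubule-binding protein of the growing spindle, was lower by −2.58 ± 0.09 and CDCA3, which helps destroy the CDK1 inhibitor WEE1, by −2.18 ± 0.07 on the log2 scale.

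**Figure D2:**
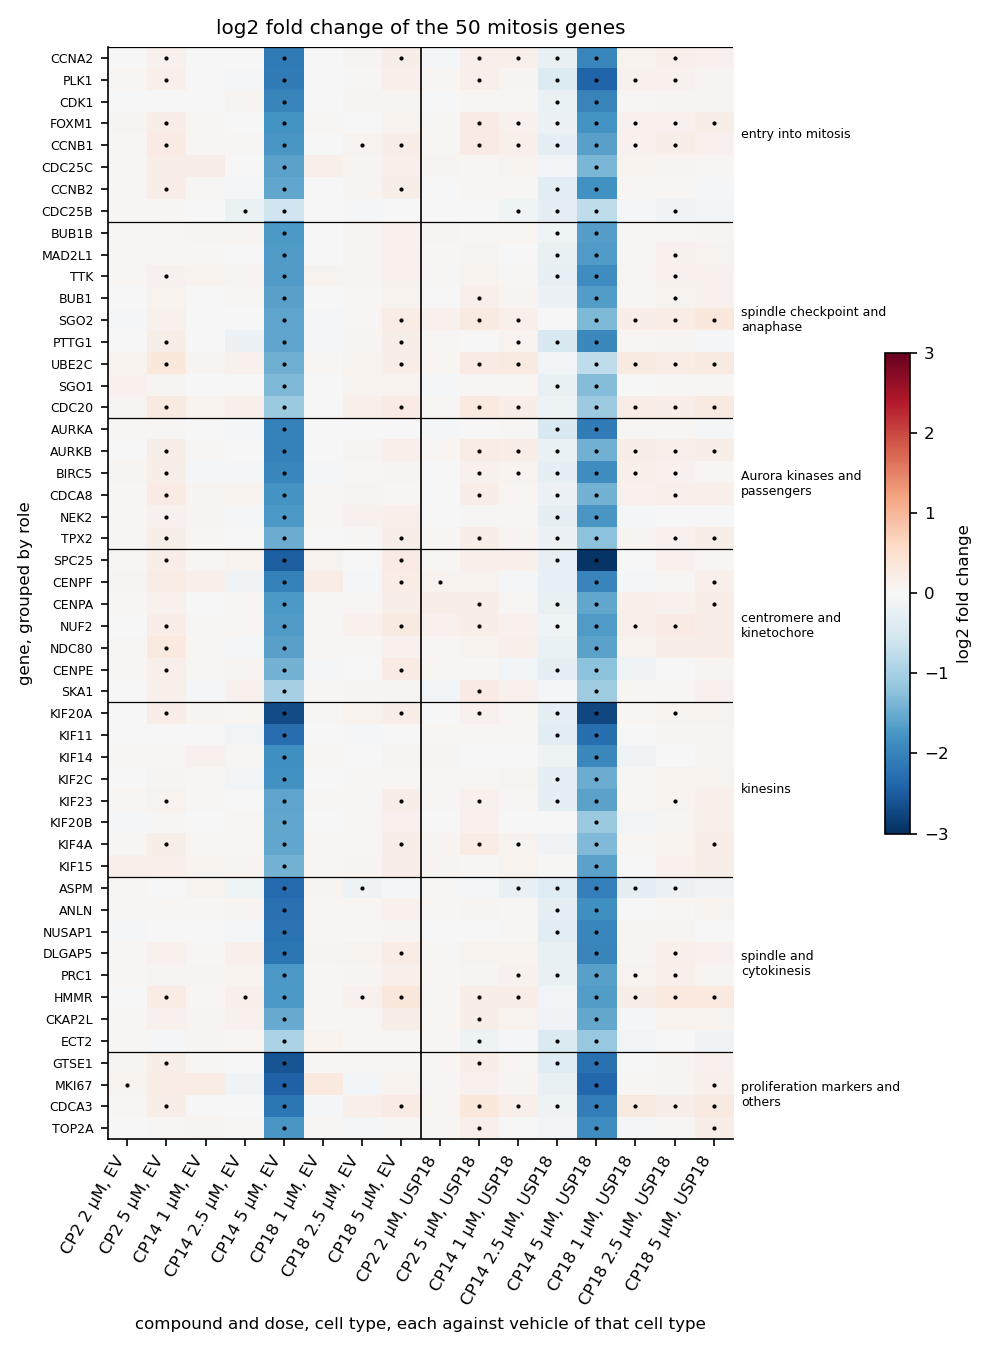
Log2 fold change against vehicle (colour) of the 50 members (lines, by role) under each compound and dose in EV and in USP18 cells (columns), with a dot where edgeR's adjusted p was under 0.05. The CP14 5 µM columns are dotted for all 50 members, with medians of −1.72 and −1.69.

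In USP18 cells the same dose of CP14 also lowered all 50 members, where 34.3% of the genes tested were lower, and 48 were past a log2 fold change of −1, where 8.78% of the genes tested were. The median log2 fold change was −1.69 and that of all genes tested 0.01. CCNB1 read 240, 240 and 237 CPM with vehicle and 73.9, 77.3 and 81.5 CPM with the compound. CDK1 read 162, 171 and 164 CPM and then 45.0, 38.4 and 40.2 CPM. PLK1 read 127, 133 and 133 CPM and then 27.1, 23.1 and 24.0 CPM. These treated libraries were all below those with vehicle, with log2 fold changes of −1.63 ± 0.04 for CCNB1, −2.01 ± 0.06 for CDK1 and −2.41 ± 0.06 for PLK1, the most changed gene of entry into mitosis (adjusted p = 3.8e-25 by edgeR). AURKB read 73.6, 75.7 and 74.2 CPM and then 26.9, 27.3 and 28.2 CPM. CDC20 read 96.5, 103 and 104 CPM and then 50.0, 46.6 and 46.9 CPM. Neither overlapped (log2 −1.45 ± 0.06 and −1.09 ± 0.05). MKI67 read 482, 471 and 477 CPM and then 104, 93.9 and 83.6 CPM. TOP2A read 720, 711 and 707 CPM and then 218, 194 and 180 CPM. MKI67 was 5.09-fold lower (log2 −2.35 ± 0.07) and TOP2A 3.63-fold lower (log2 −1.86 ± 0.05), again without overlap. The most changed members of the other groups were PTTG1 (−1.94), AURKA (−2.09), SPC25 (−2.95, 7.70-fold lower), KIF20A (−2.74) and ASPM (−2.06). The members short of −1 were UBE2C and CDC25B, each at −0.77. Mitochondrial RNA was 2.71 to 2.81% of counts with CP14 at 5 µM and 2.68 to 3.25% with vehicle in these cells, and its part in the result was not tested. The count was 50 without any 1 of the 12 libraries.

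Whether the response to CP14 at 5 µM differed between the cell types was tested as an interaction, the log2 fold change in USP18 cells minus that in EV cells. It passed the test for 16 members. In 11 the value was higher in USP18 cells, where 13.6% of the genes tested were higher, and in 5 it was lower, where 14.5% of the genes tested were lower. These counts were near the shares of all genes tested, so they show nothing particular to the members. The median interaction of the members was 0.03. UBE2C differed most, reading 90.8, 89.5 and 87.2 CPM with vehicle and 47.5, 54.4 and 56.3 CPM with the compound in USP18 cells. The libraries of USP18 cells all lay above those of EV cells both with vehicle and with the compound. The interaction was 0.71 ± 0.08 (adjusted p = 1.6e-07 by edgeR). AURKB followed at 0.59 ± 0.08 (adjusted p = 1.9e-06), KIF20B at 0.44 ± 0.07 and ANLN at 0.40 ± 0.06. Lower in USP18 cells were PTTG1 (−0.36), PLK1 (−0.31 ± 0.08, adjusted p = 0.0044), CCNB2 (−0.27), ECT2 (−0.19) and CDC25B (−0.17). The interactions of SPC25 (−0.47 ± 0.18, adjusted p = 0.055) and GTSE1 (0.34 ± 0.14, adjusted p = 0.061), the widest of their role groups, did not pass. Nor did those of MKI67 (0.08 ± 0.10), TOP2A (−0.11 ± 0.07), CCNB1 (0.12 ± 0.06), CDK1 (−0.04 ± 0.09) and CDC20 (0.03 ± 0.07).

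**Figure D3:**
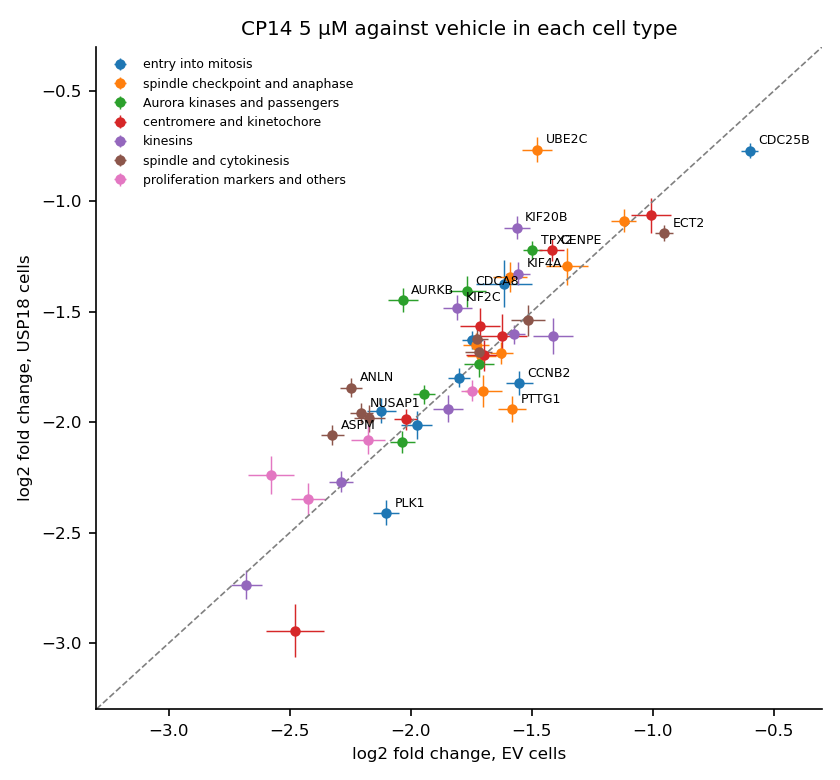
Log2 fold change of each member with CP14 at 5 µM against vehicle in EV cells (horizontal axis) and in USP18 cells (vertical axis), with 1 point per gene, its standard errors, and names where the interaction passed the test. All 50 points are below 0 on both axes, and UBE2C and AURKB lie farthest above the line of equal change, with interactions of 0.71 and 0.59.

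At 2.5 µM CP14 gave a response that differed between the cell types. In EV cells 2 members passed the test, where 15.7% of the genes tested passed in either direction, with CDC25B lower (log2 −0.20 ± 0.03, adjusted p = 7.1e-05) and HMMR higher (log2 0.15 ± 0.04). The members' median was 0.03 and that of all genes tested 0.00. In USP18 cells 33 members were lower, where 16.6% of the genes tested were lower, and the median was −0.22 beside 0.01 over all genes tested. The interaction was lower in USP18 cells for 25 members, where 4.23% of the genes tested were, with a median of −0.23 beside 0.01 over all genes tested. The changes against vehicle were all smaller than at 5 µM, and none was past a log2 fold change of −1. At 5 µM the median interaction was 0.03, with values in either direction that offset each other, so these signed medians do not compare the size of the interactions.

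In EV cells at 2.5 µM, CCNB1 read 217, 223 and 226 CPM, within reach of the vehicle libraries at 206 to 227 CPM. In USP18 cells it read 183, 205 and 207 CPM, all below the vehicle libraries at 237 to 240 CPM. It was 1.20-fold lower in USP18 cells (log2 −0.27 ± 0.04, adjusted p = 9.1e-06 by edgeR), against a log2 value of 0.03 ± 0.04 in EV cells, with an interaction of −0.30 ± 0.06 (adjusted p = 0.0013). CDK1 read 155, 153 and 158 CPM in EV cells and 133, 148 and 150 CPM in USP18 cells. Its USP18 libraries were below their vehicle (log2 −0.20 ± 0.04), its EV libraries overlapped theirs (0.08 ± 0.04), and the interaction was −0.28 ± 0.06 (adjusted p = 0.0020). PLK1 read 143, 148 and 144 CPM in EV cells and 88.7, 101 and 104 CPM in USP18 cells. The former overlapped the vehicle libraries and the latter did not (log2 −0.05 ± 0.05 and −0.42 ± 0.05), with an interaction of −0.37 ± 0.07 (adjusted p = 0.0034).

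AURKB at 2.5 µM read 61.5, 69.0 and 61.8 CPM in EV cells and 59.1, 67.5 and 68.4 CPM in USP18 cells, the latter below their vehicle libraries (log2 −0.20 ± 0.05), and its interaction of −0.22 ± 0.07 did not pass (adjusted p = 0.067 by edgeR). CDC20 read 126, 126 and 123 CPM in EV cells, above their vehicle libraries, and 84.5, 90.8 and 99.3 CPM in USP18 cells, of which 1 lay within the range of theirs. Neither change passed the test (log2 0.14 ± 0.06, adjusted p = 0.10, and −0.15 ± 0.06, adjusted p = 0.071), while the interaction did at −0.29 ± 0.08 (adjusted p = 0.040), a call that was lost without any 1 of 8 of the 12 libraries. MKI67 read 417, 463 and 439 CPM in EV cells and 313, 441 and 470 CPM in USP18 cells, where replicate 1 was far below the others, and all 6 lay below their vehicle libraries, by little in 1. TOP2A read 889, 931 and 933 CPM in EV cells and 601, 698 and 734 CPM in USP18 cells, overlapping vehicle in each. MKI67 (log2 −0.12 ± 0.13 and −0.22 ± 0.13) and TOP2A (0.03 ± 0.06 and −0.07 ± 0.06) did not pass the test in either cell type, nor did their interactions (−0.11 ± 0.18 and −0.11 ± 0.08).

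**Figure D4:**
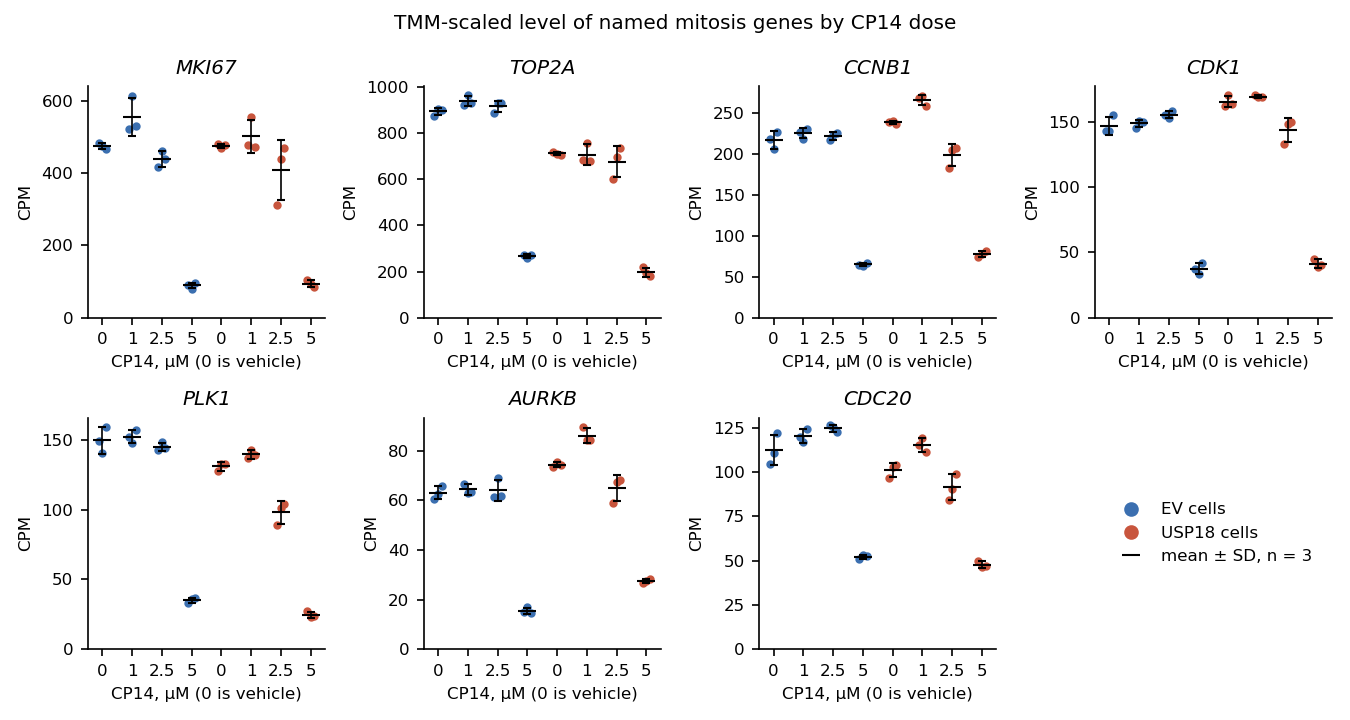
CPM of MKI67, TOP2A, CCNB1, CDK1, PLK1, AURKB and CDC20 in each library at each dose of CP14, with 0 as vehicle, in EV and USP18 cells. Points are libraries and bars the mean ± SD (n = 3), and PLK1 in USP18 cells falls from 127 to 133 CPM with vehicle to 88.7 to 104 CPM at 2.5 µM and 23.1 to 27.1 CPM at 5 µM.

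By role, 5 of 8 genes of mitotic entry, 4 of 9 of the checkpoint and anaphase, 5 of 6 of the Aurora group, 3 of 7 of the kinetochore, 2 of 8 kinesins, 5 of 8 of spindle and cytokinesis and 1 of 4 of the last group had a lower interaction at 2.5 µM. ECT2 led them all. It read 271, 271 and 283 CPM in EV cells, against 265, 266 and 265 CPM with vehicle, and 292, 312 and 333 CPM in USP18 cells, against 413, 411 and 433 CPM. The EV libraries were slightly above vehicle and the USP18 libraries well below it (log2 0.05 ± 0.04 and −0.42 ± 0.04), and the interaction was −0.47 ± 0.05 (adjusted p = 1.4e-06 by edgeR). The widest interactions of the other groups were those of AURKA (−0.39 ± 0.05), CENPE (−0.36 ± 0.07), GTSE1 (−0.36 ± 0.10, lost without any 1 of 7 of the 12 libraries), TTK (−0.33 ± 0.08) and KIF20A (−0.34 ± 0.10, adjusted p = 0.067). AURKA (−0.46), PTTG1 (−0.46), KIF11 (−0.33), CENPE (−0.29) and GTSE1 (−0.37) were the most changed of their groups in USP18 cells. In EV cells the widest values of the role groups outside mitotic entry were PTTG1 (−0.17), DLGAP5 (0.15), SKA1 (0.12), MKI67 (−0.12), CDCA8 (0.11) and KIF15 (0.09), none of which passed.

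The 3 USP18 libraries at 2.5 µM were unlike each other. The members took 0.543% of counts in replicate 1 and 0.650% in replicate 3, a wider spread than in any other group, while mitochondrial RNA was 3.21 to 3.45% of counts in them and 2.68 to 3.25% in their vehicle. Short RNAs were 0.0185, 0.0242 and 0.0143% of counts, all above their vehicle libraries at 0.00448 to 0.0108%. The part of either in the result was not tested. The interaction count of 25 became 15 without EV replicate 2 at 2.5 µM, 16 without EV replicate 3 at 2.5 µM, 15 without replicate 2 of EV vehicle and 15 without replicate 2 of USP18 vehicle. The EV count of 2 became 12 without USP18 replicate 1 at 2.5 µM, which the EV contrast shares through its estimate of the spread. It became 4 without USP18 replicate 3, 4 without replicate 3 of EV vehicle and 1 without EV replicate 2 at 2.5 µM. The USP18 count stayed between 29 and 42, and the median of −0.22 there was −0.15 without replicate 1 and −0.28 without replicate 3 at 2.5 µM.

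At 1 µM CP14 left no member past edgeR's test in EV cells, where 1.20% of the genes tested passed in either direction. At an unadjusted p under 0.05 there were 13 members, beside 11.9% of the genes tested, and by DESeq2 2 members passed. The median log2 fold change was 0.05, and MKI67 (0.23) and CDC25C (0.19) had the widest values. In USP18 cells 15 members passed, where 16.2% of the genes tested did, 13 of them higher and 2 lower, with a median of 0.07. UBE2C at 0.26 and ASPM at −0.22 changed most. In these USP18 libraries mitochondrial RNA (3.28 to 4.00%) and short RNAs (0.0124 to 0.0886%) were all above vehicle (2.68 to 3.25% and 0.00448 to 0.0108%), and their part in the result was not tested. Without replicate 3 of EV vehicle the EV count was 2, and without USP18 replicate 2 at 1 µM it was 1.

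Set against each other, the 5 µM and 2.5 µM doses of CP14 differed for all 50 members in both cell types. In EV cells 29.1% of the genes tested were lower at 5 µM, and the members' median log2 difference was −1.77, from −2.72 for KIF20A. In USP18 cells 30.9% of the genes tested were lower, and the median was −1.48, from −2.68 for SPC25. Past a log2 difference of −1 were 48 members in EV cells, where 5.77% of the genes tested were, and 45 in USP18 cells, where 6.65% were. In USP18 cells mitochondrial RNA was 2.71 to 2.81% of counts at 5 µM and 3.21 to 3.45% at 2.5 µM, and short RNAs were 0.00526 to 0.00669% and 0.0143 to 0.0242%, with no overlap in either and their part not tested. Both comparisons share the CP14 5 µM libraries with the comparisons against vehicle.

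CP18 did not lower the set at any dose, and where members passed the test most were slightly higher. At 5 µM in EV cells 18 members passed, all higher, where 8.82% of the genes tested passed in either direction. The median was 0.15 beside 0.00 over all genes tested, and HMMR (0.33) and NUF2 (0.28) changed most. In USP18 cells 13 passed, all higher, where 11.2% of the genes tested passed, with a median of 0.12 and the widest values in SGO2 (0.30) and HMMR (0.28). MKI67 was higher in USP18 cells (0.16 ± 0.04) and did not pass in EV cells (0.10 ± 0.04), and CDC20 was higher in both (0.24 ± 0.06 and 0.26 ± 0.06). No member's interaction passed edgeR's test, where 0.409% of the genes tested passed, with 5 at an unadjusted p under 0.05 (as were 8.06% of the genes tested) and 0 by DESeq2, and the 95% intervals of the 50 interactions lay between −0.38 and 0.33. These counts depended on which libraries were in the fit. The EV count of 18 became 31 without EV replicate 3 at 5 µM, 10 without EV replicate 2, 5 without replicate 1 of EV vehicle and 7 without replicate 2 of EV vehicle. The USP18 count of 13 became 25 without EV replicate 3, 7 without USP18 replicate 1, 8 without USP18 replicate 3, 7 without replicate 2 of USP18 vehicle and 7 without replicate 3 of USP18 vehicle. The interaction count became 1 without EV replicate 3. In EV replicates 1, 2 and 3 at 5 µM the members took 0.717, 0.720 and 0.665% of counts and mitochondrial RNA 3.26, 3.13 and 3.86%, against 3.20 to 3.37% with vehicle, and its part in the result was not tested.

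At 2.5 µM of CP18 3 members passed the test in EV cells, where 6.74% of the genes tested passed in either direction. The median was 0.07. ASPM was lower (−0.15), CCNB1 (0.11) and HMMR (0.12) were higher, and CDC20 (0.15) had a wide value that did not pass. In USP18 cells 23 members passed, where 15.0% of the genes tested did, 21 of them higher, with a median of 0.10 and HMMR (0.29) and NUF2 (0.24) the widest. No interaction passed edgeR's test, where 0.337% of the genes tested did, with 5 members at an unadjusted p under 0.05 (as were 8.43% of the genes tested) and 0 by DESeq2, and the 95% intervals lay between −0.24 and 0.36. The EV count of 3 became 7 without replicate 3 of EV vehicle, 1 without replicate 1, 1 without replicate 2, 1 without EV replicate 3 at 2.5 µM and 6 without USP18 replicate 3 at 2.5 µM. It was 0 in the fit of all 54 libraries. At 1 µM no member passed edgeR's test in EV cells, where 0.266% of the genes tested did, with 5 at an unadjusted p under 0.05 (as were 10.1% of the genes tested) and 1 by DESeq2. In those cells the median was 0.03, MKI67 (0.29) and CENPF (0.22) had the widest values, and the count was 2 without EV replicate 1 at 1 µM. In USP18 cells 13 passed, where 16.7% of the genes tested did, 12 of them higher, with a median of 0.05 and ASPM (−0.30) and UBE2C (0.28) the widest. That count was 8 without USP18 replicate 3 at 1 µM and 7 without replicate 1 of USP18 vehicle. Mitochondrial RNA was all above its vehicle range with CP18 at 2.5 µM in EV cells (3.47 to 3.85% against 3.20 to 3.37%) and at 1 µM in USP18 cells (3.42 to 4.00% against 2.68 to 3.25%). It was below vehicle at 1 µM in EV cells (2.15 to 2.98%), and overlapped it at 2.5 µM in USP18 cells (2.93 to 3.67%). Its part in these counts was not tested.

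CP2 at 5 µM also went with slightly higher levels. In EV cells 24 members passed the test, all higher, where 12.8% of the genes tested passed in either direction, with a median of 0.14 and UBE2C (0.32) and NDC80 (0.29) the widest. In USP18 cells 24 passed, where 19.5% of the genes tested did, 23 of them higher, with a median of 0.13 and CDCA3 (0.32) and CDC20 (0.30) the widest. ECT2 was the member that was lower (−0.15 ± 0.04). No interaction passed edgeR's test, where 1.23% of the genes tested did, with 2 members at an unadjusted p under 0.05 (as were 11.4% of the genes tested) and 0 by DESeq2, and the 95% intervals lay between −0.42 and 0.29. The EV count of 24 became 14 without replicate 1 of EV vehicle, 14 without replicate 2 of EV vehicle and 15 without EV replicate 2 at 5 µM, and the interaction count became 1 without EV replicate 1 at 5 µM. In EV replicates 1, 2 and 3 at 5 µM the members took 0.708, 0.734 and 0.669% of counts, mitochondrial RNA 3.88, 2.47 and 3.58% and short RNAs 0.00480, 0.00882 and 0.0431%. The mitochondrial share was outside the vehicle range of 3.20 to 3.37% in all 3. In USP18 cells short RNAs were 0.0192 to 0.0225%, all above vehicle at 0.00448 to 0.0108%. The part of either in these results was not tested.

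At 2 µM CP2 left 1 member past the test in each cell type. In EV cells this was MKI67 (0.10), where 2.39% of the genes tested passed in either direction, and in USP18 cells CENPF (0.11), where 1.32% did. Both were named after their values were seen. The medians were 0.04 in each, and the widest values in EV cells, KIF15 (0.15) and SGO1 (0.12), did not pass. The widest values in USP18 cells, CENPA (0.17) and SGO2 (0.13), did not pass either. The EV count became 4 without replicate 3 of EV vehicle, 2 without EV replicate 2 at 2 µM, 0 without EV replicate 1 and 0 without EV replicate 3. The USP18 count became 0 without replicate 2 or 3 at 2 µM or replicate 2 or 3 of vehicle. In EV cells mitochondrial RNA was 3.072 to 3.165% of counts, all below vehicle at 3.197 to 3.37%, and its part was not tested.

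The compounds were then compared with each other at equal doses, in 10 comparisons. At 5 µM CP14 was lower than CP18 for all 50 members in EV cells, where 28.8% of the genes tested were lower, with a median log2 difference of −1.86 and the widest in KIF20A (−2.87) and SPC25 (−2.71). In USP18 cells it was lower for all 50, where 31.3% were, with a median of −1.80 and the widest in SPC25 (−3.01) and KIF20A (−2.85). CP14 was lower than CP2 at 5 µM for all 50 members in EV cells, where 29.9% of the genes tested were lower, with a median of −1.87 and the widest in KIF20A (−2.87) and GTSE1 (−2.76). In USP18 cells all 50 were lower, where 33.9% of the genes tested were, with the widest in SPC25 (−3.11) and KIF20A (−2.89). These comparisons share the CP14 libraries. In EV cells mitochondrial RNA was 2.74 to 2.99% of counts with CP14 and 3.13 to 3.86% with CP18 at 5 µM, without overlap. In USP18 cells short RNAs were 0.00526 to 0.00669% with CP14 and 0.0192 to 0.0225% with CP2 at 5 µM, also without overlap. Elsewhere in these comparisons both signs overlapped. Their part in the results was not tested.

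CP18 and CP2 at 5 µM were not told apart by the members. No member passed edgeR's test in EV cells, where 0.0257% of the genes tested did, with 6 at an unadjusted p under 0.05 (as were 5.31% of the genes tested) and 0 by DESeq2. The 95% intervals of the 50 log2 differences lay between −0.35 and 0.27, with CDCA8 (−0.20) and NDC80 (−0.18) the widest values. No member passed in USP18 cells, where 0.0192% of the genes tested did, with 1 at an unadjusted p under 0.05 (as were 4.92% of the genes tested) and 0 by DESeq2, and there the intervals lay between −0.25 and 0.31, with KIF15 (0.15) and CCNB1 (−0.11) the widest. Differences within these bounds are not shown to be absent.

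At lower doses CP14 and CP18 parted in USP18 cells at 2.5 µM. There 41 members were lower with CP14, where 14.0% of the genes tested were lower, with a median log2 difference of −0.34 beside 0.01 over all genes tested, and PLK1 (−0.54) and PTTG1 (−0.53) the widest. In EV cells 1 member passed, where 2.53% of the genes tested did in either direction. It was CDC25B (−0.16 ± 0.03), the median was −0.03, the widest value was that of PTTG1 (−0.25, adjusted p = 0.051 by edgeR), and the 95% intervals of the 50 log2 differences lay between −0.39 and 0.30. That count of 1 became 4 without CP14 USP18 replicate 1, 2 without CP14 USP18 replicate 3, 2 without CP18 USP18 replicate 3, and 0 without CP14 EV replicate 1 or 3 or CP18 EV replicate 1 or 2. Whether this difference between compounds itself differed between the cell types was not tested. At 1 µM no member passed edgeR's test in EV cells, where 0.0763% of the genes tested did, with 2 at an unadjusted p under 0.05 (as were 6.69% of the genes tested), 0 by DESeq2, and intervals between −0.33 and 0.20. No member passed in USP18 cells, where 0.108% of the genes tested did, with 5 at an unadjusted p under 0.05 (as were 9.50% of the genes tested), 0 by DESeq2, and intervals between −0.22 and 0.30. CDC20 (0.11) and SKA1 (−0.09) in EV cells and SPC25 (0.15) and CKAP2L (0.14) in USP18 cells had the widest values at 1 µM.

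Without any compound, most members were somewhat higher in USP18 cells than in EV cells. By edgeR 35 were higher, where 29.4% of the genes tested were, and 5 were lower, where 29.1% of the genes tested were, with a median log2 fold change of 0.16 beside −0.01 over all genes tested. No member was past 1 on that scale. ECT2 rose most (0.66 ± 0.03, adjusted p = 9.0e-23), its libraries at 411 to 433 CPM all above the EV libraries at 265 to 266 CPM. The widest values of the other groups were NEK2 (0.48), TTK (0.46), FOXM1 (0.39), NUF2 (0.30), KIF14 (0.28) and TOP2A, which was lower (−0.33 ± 0.02, adjusted p = 9.6e-15). PLK1 (−0.19 ± 0.04), CDC20 (−0.16 ± 0.05, adjusted p = 0.017), KIF4A (−0.14) and CENPF (−0.08) were the other members that were lower. The CDC20 call was lost without EV replicate 2 or without USP18 replicate 1, where its log2 fold change was −0.17 and −0.12. CCNB1 (0.14 ± 0.03), CDK1 (0.17 ± 0.03) and AURKB (0.24 ± 0.04) were higher, and MKI67 did not differ beyond the spread (0.00 ± 0.02, adjusted p = 0.90).

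Regulators of mitotic transcription, 22 genes, were read with the members. With CP14 at 5 µM 15 of them were lower and 4 higher in EV cells (median −0.44), where 32.2% of the genes tested were lower and 4970 of 15947 higher. In USP18 cells 13 were lower and 4 higher (median −0.36), where 34.3% were lower and 5484 of 15947 higher. MYBL2, which turns on the late cell cycle genes, read 135, 129 and 138 CPM with vehicle and 34.6, 36.4 and 39.1 CPM with CP14 at 5 µM in EV cells. E2F1, which drives entry into S phase, read 54.5, 54.0 and 56.0 CPM and then 13.7, 14.0 and 15.9 CPM. Neither gene overlapped between the groups (log2 −1.87 ± 0.05 and −1.92 ± 0.07), and in USP18 cells they were lower by −1.64 ± 0.05 and −2.18 ± 0.07. E2F8 (−2.76 and −2.39) and E2F2 (−1.98 and −1.86) changed widely as well. CDKN1A, which encodes the CDK inhibitor p21, read 284, 274 and 280 CPM with vehicle and 693, 708 and 681 CPM with CP14 at 5 µM in EV cells. In USP18 cells it read 108, 103 and 104 CPM and then 419, 454 and 451 CPM. It rose in both (log2 1.31 ± 0.04 and 2.07 ± 0.04), with an interaction of 0.76 ± 0.05 (adjusted p = 4.5e-13 by edgeR), and its level with the compound was still lower in USP18 cells. At 2.5 µM CDKN1A was 0.15 ± 0.04 in EV cells and 0.58 ± 0.04 in USP18 cells, with an interaction of 0.42 ± 0.06 (adjusted p = 8.3e-05), MYBL2 was −0.13 ± 0.04 and −0.02 ± 0.04, and E2F1 was −0.17 ± 0.05 and −0.12 ± 0.05. With vehicle alone, CDKN1A (−1.41 ± 0.03), MYBL2 (−0.28 ± 0.03) and E2F1 (−0.19 ± 0.05) were lower in USP18 cells.

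Other lists were read beside the members. Of 60 further genes of mitosis 59 were lower with CP14 at 5 µM in EV cells (median −1.51) and 58 in USP18 cells (median −1.42), beside 32.2% and 34.3% of the genes tested, led by SPC24 (−2.54 and −2.91), the partner of SPC25, with the condensin NCAPH (−2.27) and the motor KIF18B (−2.24) next in EV cells. At 2.5 µM in USP18 cells 29 of the 60 were lower and 1 higher (median −0.12), where 16.6% of the genes tested were lower and 2636 of 15827 higher, led by TROAP (−0.55), separase (ESPL1, −0.51) and KIF18B (−0.43). All 36 genes of DNA replication were lower at 5 µM in both cell types (medians −1.54 and −1.63), among them TK1 (−2.37) and RRM2 (−2.13) in EV cells, both of nucleotide supply. At 2.5 µM in USP18 cells 9 of the 36 replication genes were lower and 5 higher, with a median of −0.02. With vehicle alone, where 29.4% of the genes tested were higher in USP18 cells and 29.1% lower, 21 of the 36 replication genes were lower and 6 higher (median −0.12), led by PCNA (−0.70), while 33 of the 60 mitosis genes were higher and 8 lower (median 0.14).

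**Figure D5:**
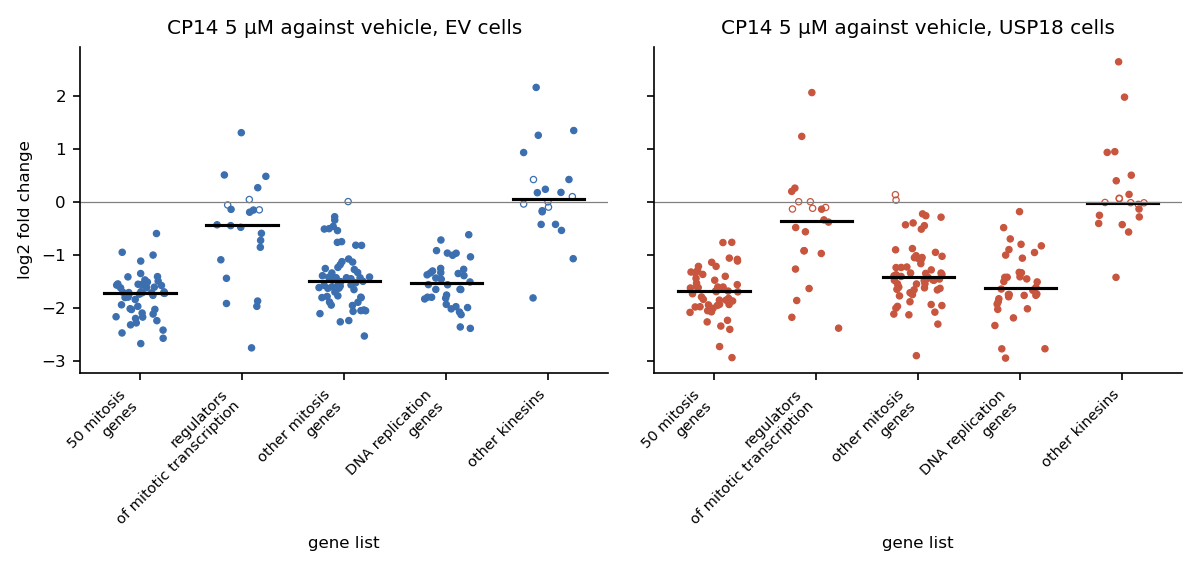
Log2 fold change with CP14 at 5 µM against vehicle for each gene (point) of the members and the other lists, in EV and USP18 cells, with open circles where the test was not passed and bars at the medians. The members' medians are −1.72 and −1.69, and those of the replication genes −1.54 and −1.63.

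Some members overlap another expressed gene, and the strand setting of the counting is not given in the sources used here. On the same strand NUSAP1 overlaps OIP5-AS1, CENPA overlaps SLC35F6, PRC1 overlaps AC068831.7 and KIF15 overlaps TMEM42. Of these neighbours OIP5-AS1 and SLC35F6 had more counts than the members (means over libraries of 3225 against 2386 and 1643 against 683). On opposite strands SPC25 overlaps NOSTRIN and CDC25C overlaps FAM53C, and these neighbours had more counts than the members (means over libraries of 654 against 412 and 972 against 382). KIF20A with CDC23 and BRD8, FOXM1 with RHNO1 and ITFG2, CCNA2 with EXOSC9, KIF4A with PDZD11, SGO2 with KCTD18, ANLN with KIAA0895 and NUSAP1 with OIP5 also overlap on opposite strands. Their values may hold reads of the neighbour.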

How the data were processed

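RNA was sequenced in 54 libraries of A549 cells, 18 groups of 3. The authors trimmed reads with cutadapt 1.18, aligned them to hg38 with STAR 2.7.0f and deposited expected counts per gene from RSEM, which the submitters' processing notes give as version 1.3.1 while the study's methods give another version. A mouse annotation is also named there, but the identifiers and symbols in the table are human. The labels describe oligo-dT capture with a stranded kit and the methods depletion of ribosomal RNA.

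The expected counts were rounded to whole numbers (94.0% were already whole, within 1e-09). Genes were kept by filterByExpr (10 counts, total 15), scaled by TMM and tested with edgeR 4.0.16 (quasi-likelihood, robust; R 4.3.3, limma 3.58.1), with Benjamini-Hochberg adjustment over all genes tested, in 34 comparisons from 15 fits. A gene passed the test at an adjusted p under 0.05. No set test was run. The fit was tested on simulated data with the same spread for every gene and changes in EV cells only, a simpler setting than these data. No result here rests on that test. Standard errors were taken as the absolute log2 fold change over the square root of F, and the 95% intervals from them and t quantiles are approximate. CPM used TMM-scaled library sizes, and exon lengths came from GENCODE 44. The alternatives were RLE scaling, no filter, at least 10 counts in every library, DESeq2 1.42.0, a replicate block, all 54 libraries fitted at once, and dropping each library.

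Values in every library are given for MKI67, TOP2A, CCNB1, CDK1, PLK1, AURKB and CDC20 and for genes singled out in the results. Named besides were, in the main comparisons, the member of each role group with the largest absolute log2 fold change and up to 5 members that passed against the majority, in other comparisons the 2 largest, and of other lists up to 3 of the largest that passed, with MYBL2, E2F1 and CDKN1A always. KIF20A, SPC25, UBE2C and ECT2 were given per library after their values were seen. The members and the lists used here (other mitosis genes, regulators, DNA replication genes, other kinesins, short RNAs and cell type markers) were chosen with earlier results of these data known.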

Additional observations from a re-analysis of the deposited data

Results flagged for a closer look

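For CP14 the response of a member could be tested for a difference between EV and USP18 cells, as an interaction over 12 libraries by edgeR. At 2.5 µM it passed for 25 members, all lower in USP18 cells, where 4.23% of the genes tested were lower, and the count was 15 to 36 with 1 library left out. Among the named genes the log2 differences were −0.30 for CCNB1, −0.28 for CDK1, −0.37 for PLK1, −0.29 for CDC20, −0.33 for TTK, −0.39 for AURKA, −0.36 for CENPE, −0.47 for ECT2 and −0.36 for GTSE1. At 5 µM it passed for 16 members, 11 higher and 5 lower, where 13.6% of the genes tested were higher and 14.5% lower. Those counts at 5 µM were near the shares of all genes tested and show nothing particular to the members. The log2 differences were −0.31 for PLK1, 0.59 for AURKB, 0.71 for UBE2C, 0.44 for KIF20B and 0.40 for ANLN. PLK1 and ECT2 (−0.19 at 5 µM) were lower in USP18 cells at both doses. ANLN (−0.36), CENPE, TPX2 and CDCA8 were among the members lower at 2.5 µM and higher at 5 µM. At 5 µM CENPE was 0.20, TPX2 0.28 and CDCA8 0.36. AURKB was −0.22 at 2.5 µM, which did not pass. Both doses share the vehicle libraries. No source says that more than 1 population carried each vector, so vector and population cannot be told apart.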

How the results depend on the processing

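RLE scaling changed none of the 34 counts by over 1.5 times. With no filter the count was 7 for CP14 2.5 µM in EV cells, 1 for CP14 1 µM and for CP18 1 µM in EV cells, and 2 for CP14 against CP18 at 2.5 µM in EV cells. With at least 10 counts in every library it was 2 for CP2 2 µM in EV cells and 2 for that compound pair. By DESeq2 it was 2 for CP2 2 µM and for CP14 1 µM, 1 for CP18 1 µM, and 2 for that pair, all in EV cells. In the fit of all 54 libraries it was 0 for CP2 2 µM in each cell type and for CP18 2.5 µM in EV cells, 9 for CP14 1 µM and 15 for CP18 2.5 µM in USP18 cells, 4 for CP14 2.5 µM in EV cells and 2 for that pair. The causes were not tested. With a replicate block the count was 1 for CP14 1 µM, 4 for CP14 2.5 µM and 2 for that pair, all in EV cells, and no other count moved by over 1.5 times: it was 50 for CP14 5 µM in each cell type, 27 and 17 for the CP14 interactions at 2.5 and 5 µM and 39 for the vector. Libraries with the same number did not deviate together (correlations −0.14 to 0.11). Leaving out each library gave, in EV and USP18 cells, ranges of 0 to 4 and 0 to 1 for CP2 2 µM, 14 to 28 and 16 to 29 for CP2 5 µM, 0 to 2 and 10 to 17 for CP14 1 µM, 1 to 12 and 29 to 42 for CP14 2.5 µM, 0 to 2 and 7 to 13 for CP18 1 µM, 1 to 7 and 16 to 23 for CP18 2.5 µM, and 5 to 31 and 7 to 25 for CP18 5 µM. The interactions ranged from 15 to 36 for CP14 2.5 µM, 14 to 18 for CP14 5 µM, and 0 to 1 for CP2 5 µM and CP18 5 µM, and stayed at 0 for CP18 2.5 µM. The vector count ranged from 35 to 39. CP14 against CP18 ranged from 0 to 4 in EV cells and 40 to 46 in USP18 cells at 2.5 µM and stayed at 0 at 1 µM. All 50 passed throughout in the CP14 5 µM comparisons against vehicle, CP18, CP2 and 2.5 µM, and CP18 against CP2 stayed at 0. Of 402 medians with a library left out 4 moved by over the median standard error, those of CP14 2.5 µM against vehicle (−0.15 and −0.28) and against CP18 (−0.26 and −0.40) in USP18 cells without its replicate 1 or 3. Of 1542 values of named genes 1479 kept their side of the threshold, 46 newly passed and 17 no longer did, all 17 from leaving out a library. At 3 libraries a group, the 95% interval of a member's log2 fold change against vehicle had a median width to either side of 0.12 for CP14 5 µM in EV cells.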

Other observations

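Kinesins outside the members changed in either direction, in numbers near the share of all genes tested, so nothing particular to them is shown. Of 20 further kinesins, 7 were lower and 8 higher with CP14 at 5 µM in EV cells (median log2 fold change 0.05), where 32.2% of the genes tested were lower and 4970 of 15947 higher. In USP18 cells 7 were lower and 7 higher (median −0.01), where 34.3% of the genes tested were lower and 5484 of 15947 higher. KIF26B (2.16 ± 0.61 and 2.65 ± 0.60, at low counts) rose, as did the neuronal transport motor KIF5A (1.26 ± 0.18 and 1.98 ± 0.18), while KIF24, a centriole kinesin, was lower (−1.82 ± 0.12 and −1.43 ± 0.11). Among the further genes of mitosis, the checkpoint gene MAD1L1 did not pass the test in either cell type (0.01 ± 0.10 and 0.14 ± 0.10). WEE1, the kinase that holds CDK1 back, was lower in EV cells (−0.77 ± 0.07) and not in USP18 cells (0.03 ± 0.06), with an interaction of 0.80 ± 0.09 (adjusted p = 2.2e-08 by edgeR). These 2 genes were picked after their values were seen.

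Some lineage markers moved with CP14 at 5 µM as well, where 32.2% of the genes tested were lower in EV cells and 34.3% in USP18 cells. The markers named are a part of their lists, and the tested fibroblast markers are not given. LAMP3, a lysosomal protein of alveolar type 2 and dendritic cells, was higher in both cell types (log2 4.62 and 4.55), while the other tested marker of that list, NAPSA, was 0.04 and −0.09. CD68 was higher (0.85 and 1.56) and CD14 lower (−1.96 and −3.84). EPCAM (−1.53 and −0.85) and KRT8 (−1.50 and −1.49) were lower in both cell types, and KRT7 was higher (0.94 and 1.16). The other tested epithelial markers, CDH1, KRT18, KRT19, MUC1 and CLDN4, are not given. The named markers therefore do not show which way the epithelial list moved. The short RNAs without a poly(A) tail had a median log2 fold change of −1.93 in EV cells and −0.06 in USP18 cells at very low counts.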
